A study of Mus musculus with 16 samples.

Results

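The promoters of protein-coding genes were taken as windows reaching 2.5 kb to each side of every protein-coding gene start that GENCODE M21 places on chromosomes 1 to 19 of mm10. Of 20807 such windows, 20800 were kept. The 7 others overlapped a deposited cluster of at least 1000 break ends in some library and were left out. They belonged to Slc3a2 and to the predicted genes Gm10801, Gm10800, Gm10722, Gm11168, Gm10718 and Gm10717. The kept windows cover 96.001 Mb. No measured value other than that cluster limit entered the choice.

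Double-strand breaks were mapped by BLISS, in which free DNA ends are blunted and joined to adapters inside fixed cells and the flanking sequence is read. The cells were AB22, an established mouse mesothelioma line, and every group had been transduced with a pTRIPZ lentivirus, selected with puromycin, given doxycycline for several days to switch on its hairpin, and held in G1. The hairpin was either a control (shCTRL) or directed against HMGB1 (shHMGB1), an abundant DNA-bending chromatin protein, and cells of each kind were given gamma rays from a caesium source at 3, 5 or 10 Gy, or none (0 Gy). Each of the 8 groups had 2 libraries, 16 in all, called biological replicates without further detail, so the p-values cover only the spread seen among these libraries, which may be technical. Both kinds of cell are transduced populations of 1 line, and each gene-directed effect rests on 1 hairpin label. The series' title asks whether nucleosomes protect DNA from breaks made by irradiation.

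The libraries held 132390 to 1020770 break ends (median 813725). The smallest was shCTRL 3 Gy replicate 2, with 100631 ends on chromosomes 1 to 19 outside the dense clusters; the median was 610817.5. Shares and profiles were therefore computed after thinning every library to 100631 ends. Levels of single promoters are given as CPM, ends per 1000000 ends on chromosomes 1 to 19 outside the dense clusters. The AB22 identity cannot be read from break ends, which are not RNA levels, and neither can the knockdown. The Hmgb1 promoter itself held 11.2 ± 7.79 CPM (SD, n = 16).

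A promoter is the stretch around a transcription start site (TSS) where RNA polymerase II and its general factors assemble. Most mammalian promoters of widely used genes lie in CpG islands, are kept free of nucleosomes just upstream of the start, and hold paused polymerase a short way downstream. Torsion released by topoisomerases makes active starts a known place of DNA breaks in many cell types.

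The sequences below show the promoters that the levels turned on: the 3 CpG-rich and the 3 CpG-poor members with the most ends within 500 bp of the start. They run from 250 bases before to 30 bases after the RefSeq start (GRCm38.p6), 5′ to 3′ along the gene. Capitals mark exact matches, on either strand, to 6 motifs: TATAAA of the TATA box, CCAAT of the CCAAT box, GGGCGG of the GC box, CCGGAAG of an ETS site, TGACTCA of an AP-1 site and TGACGTCA of a CRE. No matches overlapped. CpG-rich members were those whose 300 bases of RefSeq promoter had a GC content of at least 50% and an observed over expected CpG ratio of at least 0.6.
Rpl7a (CpG-rich, chr2:26910557-26910836, plus strand): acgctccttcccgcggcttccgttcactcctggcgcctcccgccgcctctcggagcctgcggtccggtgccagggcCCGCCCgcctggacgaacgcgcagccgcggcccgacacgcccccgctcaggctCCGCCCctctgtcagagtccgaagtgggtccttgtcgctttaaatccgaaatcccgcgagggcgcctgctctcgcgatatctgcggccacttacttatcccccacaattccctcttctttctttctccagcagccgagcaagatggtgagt
Gtf3c6 (CpG-rich, chr10:40257683-40257962, minus strand): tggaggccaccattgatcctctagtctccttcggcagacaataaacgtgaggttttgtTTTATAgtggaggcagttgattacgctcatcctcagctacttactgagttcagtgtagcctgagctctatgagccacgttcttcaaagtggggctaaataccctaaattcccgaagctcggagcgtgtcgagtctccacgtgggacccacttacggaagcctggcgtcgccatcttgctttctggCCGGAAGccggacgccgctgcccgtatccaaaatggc
Pdzd8 (CpG-rich, chr19:59345751-59346030, minus strand): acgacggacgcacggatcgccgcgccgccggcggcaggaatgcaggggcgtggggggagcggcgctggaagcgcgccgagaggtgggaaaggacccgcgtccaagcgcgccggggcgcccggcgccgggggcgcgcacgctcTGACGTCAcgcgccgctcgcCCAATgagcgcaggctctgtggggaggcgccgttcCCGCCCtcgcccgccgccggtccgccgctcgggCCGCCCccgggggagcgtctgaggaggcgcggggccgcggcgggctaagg
Ccdc107 (CpG-poor, chr4:43493115-43493394, plus strand): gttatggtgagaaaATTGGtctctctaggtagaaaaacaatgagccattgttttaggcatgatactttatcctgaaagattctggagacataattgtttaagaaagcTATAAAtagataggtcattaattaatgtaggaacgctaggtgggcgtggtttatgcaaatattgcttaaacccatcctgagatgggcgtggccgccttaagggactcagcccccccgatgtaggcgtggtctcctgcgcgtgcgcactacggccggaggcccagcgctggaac
Stap2 (CpG-poor, chr17:56005577-56005856, minus strand): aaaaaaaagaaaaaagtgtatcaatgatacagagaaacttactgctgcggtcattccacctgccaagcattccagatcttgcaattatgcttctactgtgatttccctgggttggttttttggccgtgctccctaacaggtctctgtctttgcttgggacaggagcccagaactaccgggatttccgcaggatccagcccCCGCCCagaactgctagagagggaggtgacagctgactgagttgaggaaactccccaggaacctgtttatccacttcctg
Gpsm3 (CpG-poor, chr17:34589556-34589835, plus strand): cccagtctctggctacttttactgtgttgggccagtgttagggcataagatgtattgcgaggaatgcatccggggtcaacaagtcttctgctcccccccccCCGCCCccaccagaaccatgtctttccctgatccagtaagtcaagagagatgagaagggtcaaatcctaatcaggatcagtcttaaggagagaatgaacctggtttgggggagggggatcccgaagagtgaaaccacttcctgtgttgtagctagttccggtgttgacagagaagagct

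In most of these 6 genes the ends lay outside the printed bases. The Rpl7a sequence, which holds GGGCGG on the opposite strand at -174 and -121 counted from the RefSeq start, contained 8 of the 9748 ends of its window. Gtf3c6 contained 1 of 4683, Ccdc107 2 of 1554, Stap2 0 of 982 and Gpsm3 1 of 328. Pdzd8, which encodes a protein of membrane contact sites, was different: 459 of its 497 ends fell inside the printed sequence, and 87.7% of its ends lay at 1 base, 41 bp before the start. That base is between the GGGCGG matches at -53 and -20, with CCAAT at -88 and the CRE letters TGACGTCA at -108. A match is a description of letters only. Ccdc107 shows a limit of the classes: its CpG ratio was 0.96 but its GC content was 49.3%, so it counted as CpG-poor. Its RefSeq start lies 465 bp from the GENCODE start, and the position with most ends belongs to Rmrp, the RNA of the RNase MRP ribozyme. The RefSeq start of Gtf3c6 lies 396 bp from the GENCODE one.

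RefSeq promoter sequences matched 13125 members, 63.1%, of which 6922 were CpG-rich and 6203 CpG-poor. This is under 80% of the members, so the classes describe the matched members and not all promoters. Among the matched sequences GGGCGG occurred in 51.0% (75.3% of CpG-rich and 23.8% of CpG-poor ones), CCAAT in 37.7%, CCGGAAG in 13.2%, TATAAA in 11.0%, TGACTCA in 4.39% and TGACGTCA in 2.69%. Members with CCGGAAG had a median level of 3.19 CPM and those without it 2.04. Members with TATAAA, letters held by 18.2% of CpG-poor and 4.58% of CpG-rich sequences, had a median of 1.64 against 2.28 without. These medians move with CpG content, and the part of each was not tested.

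Most promoters held few ends, and a small number held very many. Over the 16 libraries summed, the median member held 17 ends at 14 positions (quartiles 11 and 30), 346 members held none, and the median of the mean levels was 2.02 CPM. The 10 members with most ends held 16.8% of all ends in the windows and the 208 members of the top 1% held 35.8%. Sequencing depth thus limited single promoters: 3866 members averaged under 1 CPM, and only 1204 had enough ends to be tested one by one.

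Among the 12 members with the highest levels, 4 were predicted genes whose ends spread over many positions: Gm21738 at 3406 ± 845 CPM (SD, n = 16), Gm17535 at 1420 ± 287, Gm10715 at 999.6 ± 211 and Gm10719 at 812 ± 169. Their most hit base held at most 2.99% of their ends. Without these 4 windows the promoter share averaged 7.22 ± 0.881% of ends, and none of the comparisons of shares and shape below changed its call. Of the genes with a name of their own, many of the highest lay over small nucleolar RNA (snoRNA) genes, which often sit in introns of ribosomal and other housekeeping genes. Zbtb37, a zinc finger protein gene whose window reaches the snoRNAs of the neighbouring noncoding host gene upstream, had 1737 ± 580 CPM (SD, n = 16; lowest library 883, highest 3041), and 99.9% of its ends were in exons or small RNA genes. Rpl13a, a protein of the large ribosomal subunit, had 1714 ± 945 CPM (832 to 4770). Rpl7a and Med22, a divergent pair of a ribosomal protein and a Mediator subunit, share their 9748 ends and so have 1 level, 1293 ± 594 CPM. Rabggtb, Gtf3c6 and Rcc1, which encode a prenylation enzyme, a subunit of the RNA polymerase III factor TFIIIC and the guanine exchange factor of Ran, had 607 ± 232, 590 ± 180 and 503 ± 137 CPM, with the most hit base in a snoRNA gene in each: Gm24494, Rnu3a and Snora73a. Between 10.0% and 26.2% of the ends in member windows lay in snoRNA genes, depending on the library. The 499 windows with a small RNA gene held 15.3% to 32.2% of those ends.

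A second kind of high promoter had nearly all of its ends at 1 base with no small RNA gene. Gprin1, a gene of neurite outgrowth, had 844 ± 294 CPM (497 to 1610), of which 97.7% lay at 1 base 1939 bp after the start. Rell2 and Hdac3, divergent neighbours on chromosome 18, share 1 such base, which held 94.0% and 94.2% of the ends of their windows at levels of 623 ± 264 and 623 ± 265 CPM. Of 2066 members with at least 50 ends, 103 had over 50% of them at 1 base. Each deposited end stands for a molecule kept after removal of duplicates by molecular identifiers, per the submitters' processing notes. Whether a position reflects breaks or mapping of repeated sequence was not tested.

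**Figure D1:**
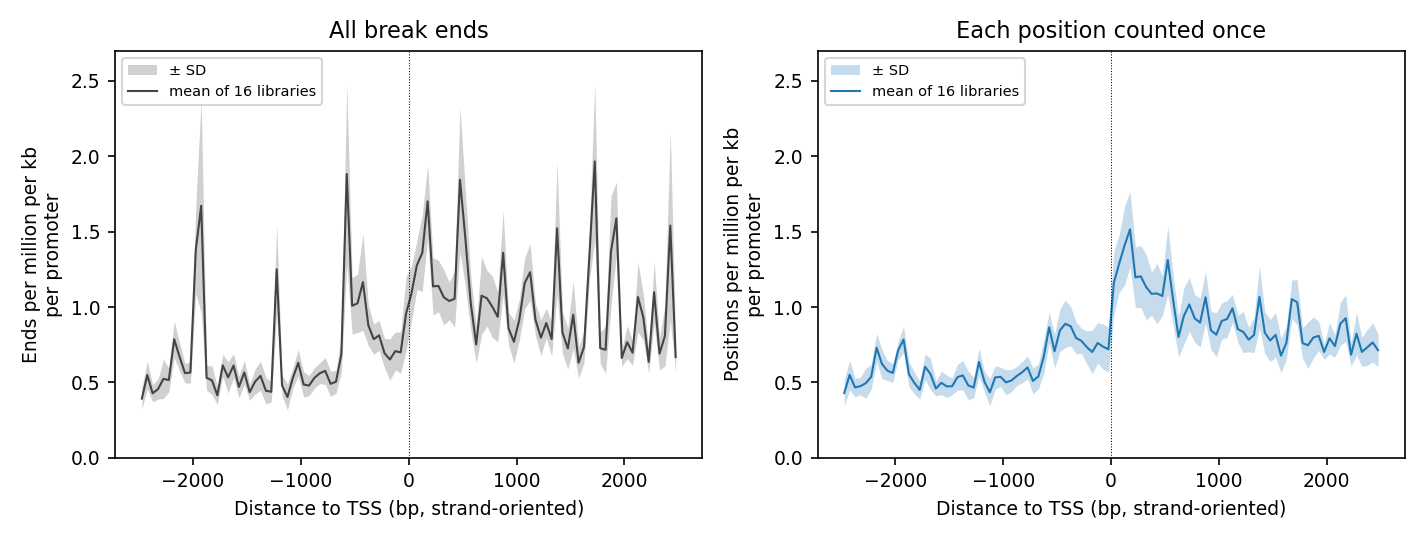
Break ends (left) or positions (right) per 1000000, per kb and promoter (vertical axis) in 50 bp bins by distance to the TSS (horizontal axis, positive along the gene); lines are means of 16 thinned libraries and bands their SD. The spikes on the left come from single promoters. With each position counted once, on the right, the profile steps up at the TSS and is highest from 150 to 199 bp after it. Of all ends in that bin, the predicted gene Gm21738 held 27.9%. The ends of its window spread over 2071 positions, so counting positions once need not remove its part, which was not computed.

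Break ends were denser close to the TSS than at the edges of the same windows, and denser after the TSS than before it. The enrichment of the core, the log2 density within 500 bp of the TSS over that at 1.5 to 2.5 kb, averaged 0.38 ± 0.11 (SD, n = 16), a 1.30-fold density. Its lowest library was 0.12 (shCTRL 3 Gy replicate 2) and its highest 0.62 (shCTRL 0 Gy replicate 1), so it was above 0 in 16 of 16 libraries (exact sign-flip test, two-sided, p = 3.05e-05, the smallest this test can give; adjusted over 4 shape tests 3.05e-05). The side ratio, the log2 of ends in the first 1 kb after the TSS over the last 1 kb before it, averaged 0.56 ± 0.12, a 1.47-fold excess, from 0.25 in shHMGB1 5 Gy replicate 2 to 0.71 in shCTRL 10 Gy replicate 1 (16 of 16 above 0, exact p = 3.05e-05). Exons and small RNA genes held 37.6 ± 5.37% of the ends in the 1 kb before the start and 62.5 ± 2.5% of those in the 1 kb after it. With these annotated stretches taken out, the core stayed 1.35 ± 0.105-fold and the side ratio 1.39 ± 0.134-fold.

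The profile of all ends was not smooth, because single promoters filled single bins. In 20 of 100 bins 1 member held over 25% of the ends, and in 4 of them over 50%. Among these, Zbtb37 held 65.8% of the bin from -1250, Rpl13a 54.3% from 2400 and Gprin1 50.3% from 1900. With each position counted once and scaled to 1000000 positions per library, the density was 0.552 ± 0.0312 positions per kb and promoter from 2500 to 1500 bp before the TSS. It reached 0.731 ± 0.117 in the last 250 bp before it and 1.31 ± 0.195 in the first 250 bp after it. The highest bin, 150 to 199 bp after the TSS, had 1.52 ± 0.251, and the outer 1 kb downstream still had 0.796 ± 0.0797. The first 50 bp after the TSS had 1.63 ± 0.230 times the density of the last 50 bp before it, and the ratio was above 1 in every library (1.21 to 1.94). The positions thus stepped up at the annotated start, peaked in the early part of the gene and did not return to the upstream level inside the window. Outside exons and small RNA genes the highest bin was the same. Of all ends in that bin, exons included, the predicted gene Gm21738 alone held 27.9%. Its part of the bin was not computed with each position counted once or outside exons.

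CpG-rich promoters had the steeper profile. Their core was 1.58 ± 0.177-fold denser than their flanks and that of CpG-poor promoters 1.26 ± 0.123-fold. The log2 difference of 0.32 ± 0.17 was above 0 in 16 of 16 libraries (exact sign-flip p = 3.05e-05, adjusted 3.05e-05), from 0.01 in shHMGB1 3 Gy replicate 1 to 0.57 in shHMGB1 10 Gy replicate 1. With each position counted once, CpG-rich promoters had 1.82 ± 0.388 positions per kb and promoter (of 1000000) in the first 250 bp after the TSS and 1.02 ± 0.213 in the last 250 bp before it. CpG-poor promoters had 0.794 ± 0.0898 and 0.547 ± 0.0815. In the outer kilobase upstream the classes were closer, at 0.557 ± 0.0547 and 0.413 ± 0.0311. The median member held 2.98 CPM among CpG-rich and 1.57 among CpG-poor promoters, and 14 of the CpG-rich but 172 of the CpG-poor had no end in any library.

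Divergent promoters, the 1448 members with another protein-coding start within 1 kb upstream on the opposite strand, held a median of 3.58 CPM. Their side ratio was 0.984 ± 0.0469-fold and that of the other members 1.59 ± 0.144-fold, a log2 difference of -0.69 ± 0.10 (exact sign-flip p = 3.05e-05, 16 of 16 libraries below 0). Both starts of such a pair are members, so an end after one start is counted before the other, and a ratio near 1 follows largely from that counting. Between 500 bp and 1 kb before the TSS, where the neighbouring gene lies, they had 1.47 ± 0.218 positions per kb and promoter (of 1000000), and other promoters 0.537 ± 0.0365.

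**Figure D2:**
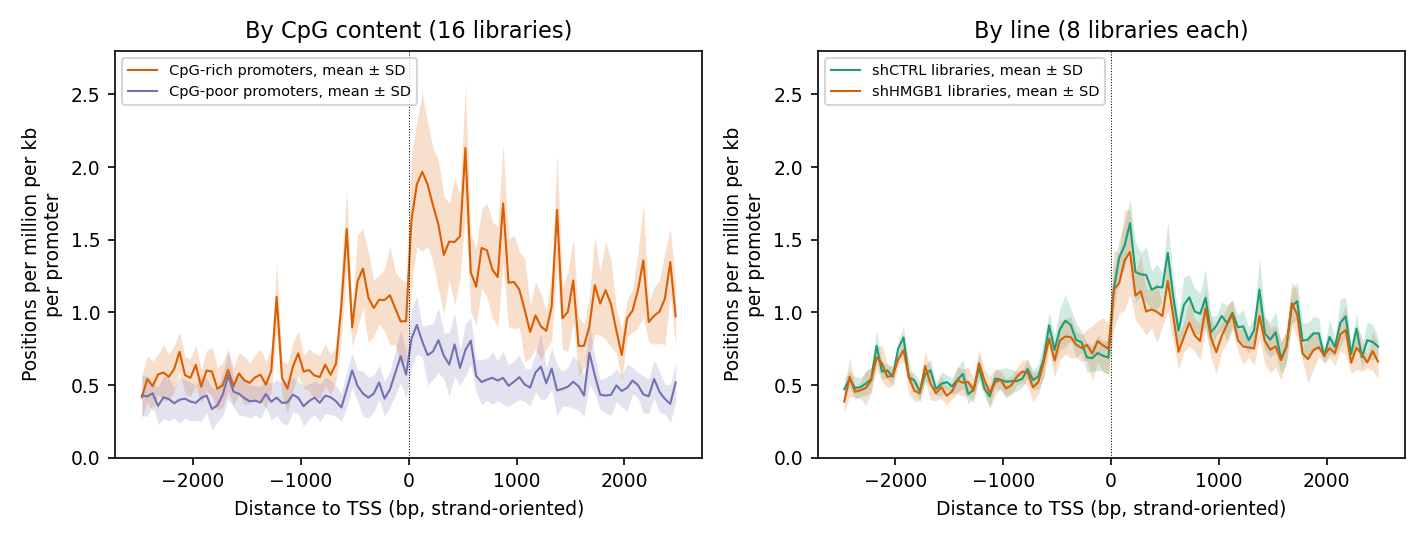
Positions per 1000000, per kb and promoter (vertical axis), each position counted once per library, by distance to the TSS (horizontal axis); lines are means and bands SD over libraries. CpG-rich promoters stand above CpG-poor ones on both sides of the TSS, and after the TSS the shHMGB1 mean lies below the shCTRL mean in 47 of 50 bins, with bands that overlap in all but 1 bin.

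Gene groups differed widely in how many break ends their promoters held. Among the lists, the 29 highly transcribed genes had a median of 13.9 CPM, against 2.02 for all members. The 24 fibroblast and matrix genes had 9.88, the 20 translation factors 8.54, the 82 ribosomal protein genes 8.50 and the 21 heat shock and chaperone genes 5.38. Lower medians belonged to immediate early genes (4.61), HMG box and architectural proteins (3.87), p53 targets (3.09) and double-strand break repair genes (3.04). Under the level of all members were histone genes (1.65), blood cell genes (1.63), the 1087 olfactory receptors (1.48), long fragile-site genes (1.35), neuronal genes (1.20), the 329 vomeronasal receptors (1.19) and mesothelial genes (1.02). These lists were chosen with earlier results of these data known, and their order is a description.

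**Figure D3:**
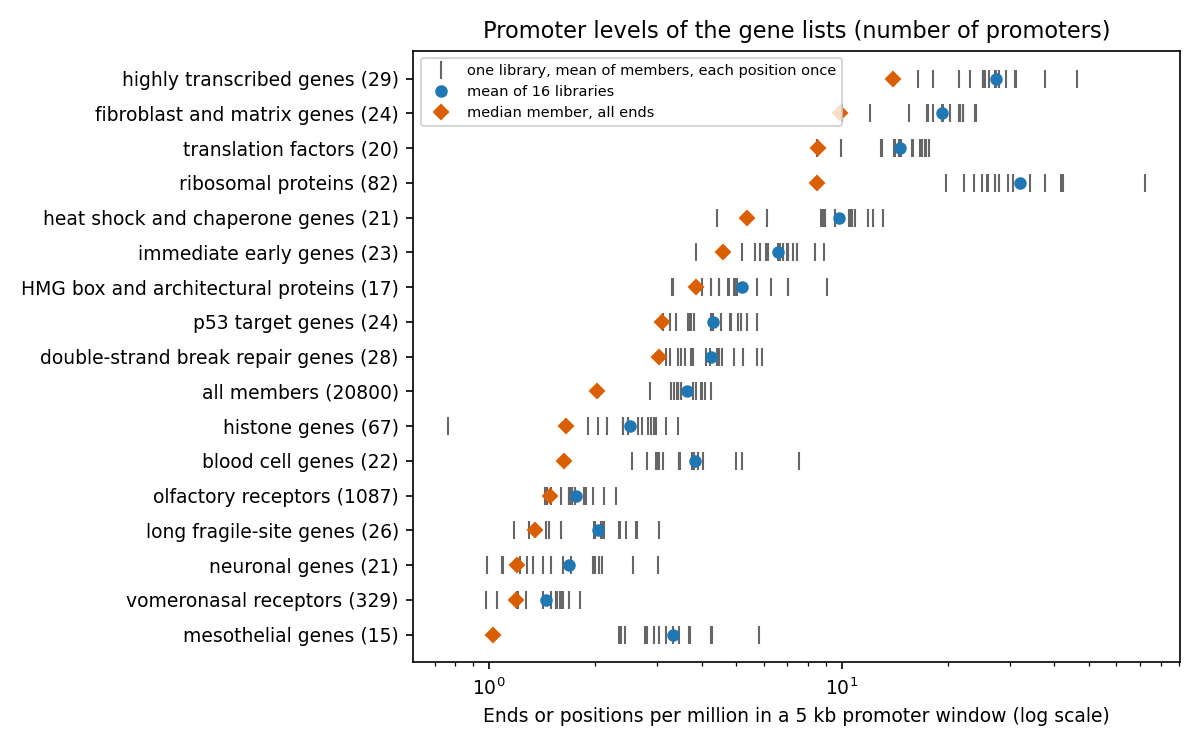
Levels of promoter windows by gene list (horizontal axis, log scale); diamonds are the median member in CPM of all ends, ticks the mean of a list's members in each of 16 libraries with each position counted once, and circles the mean of those ticks. Highly transcribed, matrix, translation and ribosomal protein genes stand above all members, and receptor and neuronal genes below. Libraries were not thinned for these levels.

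Counted outside exons and small RNA genes, the mean densities of the lists with the highest medians were also above that of all members. The density was 2.75 ± 0.683 CPM per kb for highly transcribed genes, 2.34 ± 0.675 for matrix genes, 2.00 ± 0.587 for ribosomal proteins and 1.82 ± 0.441 for translation factors. All members had 0.678 ± 0.0479, olfactory receptors 0.376 ± 0.0397 and vomeronasal receptors 0.301 ± 0.0472 (SD, n = 16 throughout). The order of the lists by mean density was not the same as that by median level. The p53 targets, above all members by median level, had 0.645 ± 0.151 CPM per kb, below all members. Mesothelial genes, lowest by median level, had 0.516 ± 0.203 CPM per kb, above the receptors. Both changes of order were also there in the means with all ends, exons included. The p53 targets averaged 4.17 ± 1.29 CPM and all members 4.32 ± 0.495. Mesothelial genes averaged 3.13 ± 0.768 CPM, olfactory receptors 1.64 ± 0.214 and vomeronasal receptors 1.30 ± 0.221. The changes thus go with means in place of medians and not with leaving out exons. The mean over ribosomal protein genes with all ends was 112 ± 47.3 CPM. It was 336 ± 147 CPM over the 26 with a small RNA gene in the window and 7.46 ± 1.41 over the 56 without. The long fragile-site genes reached 2.60 ± 0.822 CPM per kb outside exons, but Tenm4, with 98.2% of its 1644 ends at 1 base, supplied most of those ends.

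Some named promoters of these lists spread their ends over many positions, and others did not. Thbs1, which encodes the matricellular protein thrombospondin 1, had 111 ± 39.6 CPM (37.4 to 171) at 499 positions, and its most hit base held 2.67% of the ends. Actb, cytoplasmic actin, had 93.2 ± 41.6 CPM (54.5 to 209) at 242 positions, and Col1a1, a chain of collagen I, 68.9 ± 29.4 (33.3 to 124) at 303 positions. Of their ends, 98.3%, 97.8% and 96.3% lay after the start. Hspa5, the main chaperone of the endoplasmic reticulum, had 44.2 ± 22.4 CPM, and Calr, the lectin chaperone calreticulin, 22.5 ± 12.1. Among the stress and damage genes Myc had 16.3 ± 5.34, Fosl1 16.2 ± 5.66, Bax 13.1 ± 8.66, Plk2 9.99 ± 6.97, Polm 18.2 ± 9.66 and Prkdc 8.49 ± 7.23. Msln, the mesothelial surface protein mesothelin, had 14.2 ± 9.94. Olfr745, an olfactory receptor gene with 61.1 ± 18.4 CPM, stood far above its list, with 87.6% of its ends at 1 base. Cd68, a macrophage marker with 79.1 ± 32.2 CPM, did so with a small RNA gene in its window and 96.1% of its ends in exons or small RNA genes.

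Over all doses, libraries of shHMGB1 cells had a smaller mean share of their ends in promoter windows than those of shCTRL cells. The difference did not pass the adjusted test. The share was 8.15 ± 0.713% in 8 shCTRL libraries (lowest 7.40, median 8.23, highest 9.47) and 7.37 ± 0.782% in 8 shHMGB1 libraries (6.19, 7.30, 8.55). The groups overlapped. The difference within doses was -0.78 points (exact permutation test within doses, two-sided, p = 0.0278, adjusted 0.0702 over 10 tests; smallest possible p 0.00154). With each position counted once it was -0.54 points and passed (adjusted exact p = 0.0193). Outside exons and small RNA genes it was -0.25 points (adjusted exact p = 0.145).

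Irradiated libraries held a smaller promoter share than unirradiated ones in the means. At 0 Gy the shares were 8.22% and 8.65% in shCTRL and 8.55% and 8.40% in shHMGB1. The 12 irradiated libraries ranged from 6.19% to 9.47% with a median of 7.40%. Of these, 11 lay at or under 8.32% and 1, shCTRL 3 Gy replicate 2, lay above all others. Every irradiated shHMGB1 library lay below both 0 Gy values of its line, the highest at 7.40%. In shCTRL both 5 Gy libraries (8.32% and 8.24%) lay between the 0 Gy values. Replicate 1 of shCTRL at 3 Gy (7.40%) and both shCTRL 10 Gy libraries (7.49% and 7.43%) lay below them. The difference within lines was -0.92 points (exact permutation test within lines, p = 0.0281, adjusted 0.0702). Counting each position once gave 7.60 ± 0.0934% (n = 4) against 6.78 ± 0.547% (n = 12), a difference of -0.83 points that passed (adjusted exact p = 0.0193). It also passed outside exons and small RNA genes at -0.47 points (adjusted exact p = 0.0340). The means did not fall step by step with dose: the share was 7.62 ± 1.36% at 3 Gy, 7.64 ± 0.766% at 5 Gy and 7.35 ± 0.181% at 10 Gy (SD, n = 4 each). The 95% Wilson interval of a single library's share, which covers counting error only, reached at most 0.181 points to either side. The irradiation response of the share was 1.09 points more negative in shHMGB1 than in shCTRL (-1.09; exact p = 0.0309, adjusted 0.154 over 5 tests), which did not pass. Without shCTRL 0 Gy replicate 2 it was -1.30 points and passed (adjusted exact p = 0.0116).

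Library size moved with these shares. Over the 16 libraries the promoter share fell with the log10 number of ends outside dense clusters (Pearson r = -0.74, permutation p = 0.00086, adjusted 0.0086 over 10 relations; Spearman rho = -0.57, permutation p = 0.0225, adjusted 0.0458). Without the 2 libraries farthest in size, shCTRL 3 Gy and 0 Gy replicate 2, r was -0.50 (permutation p = 0.0698). Among the 8 shCTRL libraries r was -0.98 and among the 8 shHMGB1 libraries 0.0032. The relation thus lay in shCTRL, where the 0 Gy libraries are also small, and rested in part on the 2 smallest libraries. Its part in the differences of the share was not tested.

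The part of the share in CpG-poor promoters was lower after irradiation and passed the test. It was 1.65 ± 0.0536% at 0 Gy (n = 4, lowest 1.61) and 1.5 ± 0.073% after irradiation (n = 12, highest 1.64), a difference of -0.15 points (exact p = 0.00383, adjusted 0.0383). The call ended in 18 of 28 other settings, among them outside exons and small RNA genes (-0.091 points, adjusted exact p = 0.0574), so it is close to the limit of what 16 libraries show. CpG-rich promoters gave -0.61 points (adjusted exact p = 0.0893), a difference larger in points that did not pass. Between lines the differences were -0.54 points for CpG-rich (adjusted exact p = 0.0893) and -0.05 points for CpG-poor promoters (adjusted exact p = 0.220).

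The shape around the TSS was compared between lines and between irradiated and unirradiated libraries. The core enrichment was 0.38 ± 0.15 in shCTRL and 0.39 ± 0.07 in shHMGB1 (difference 0.01, adjusted exact p = 0.898), and 0.46 ± 0.13 at 0 Gy against 0.36 ± 0.10 after irradiation (-0.11, adjusted exact p = 0.168). With each position counted once the second difference was -0.13 and passed (adjusted exact p = 0.0193), and the first 250 bp after the TSS had 1.52 ± 0.0433 positions per kb and promoter (of 1000000) at 0 Gy and 1.24 ± 0.173 after irradiation. Replicate 1 had the higher core enrichment in 8 of 8 groups, 0.46 ± 0.08 against 0.31 ± 0.08 in replicate 2, and the higher side ratio in 7 of 8. The source of the replicate number is not named in the labels. For all ends, exchanging labels only within replicate numbers changed no call of core enrichment or side ratio. The differences with each position counted once were not tested that way.

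The excess of ends after the TSS was smaller in shHMGB1 libraries in the means. The side ratio was 0.63 ± 0.06 in shCTRL (0.56 to 0.71, median 0.62) and 0.49 ± 0.12 in shHMGB1 (0.25 to 0.67, median 0.47). In shHMGB1, 6 of 8 libraries lay below every shCTRL library, and shHMGB1 3 Gy and 10 Gy replicate 1 lay within the shCTRL range. The log2 difference of -0.14, 0.907-fold, did not pass (exact p = 0.0201, adjusted 0.0702). It passed with each position counted once (-0.17, adjusted exact p = 0.0334) and outside exons and small RNA genes (-0.20, adjusted exact p = 0.0154), so it was as large without exons as with them. Irradiation left no measured difference in the side ratio (-0.0007, adjusted exact p = 0.990).

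**Figure D4:**
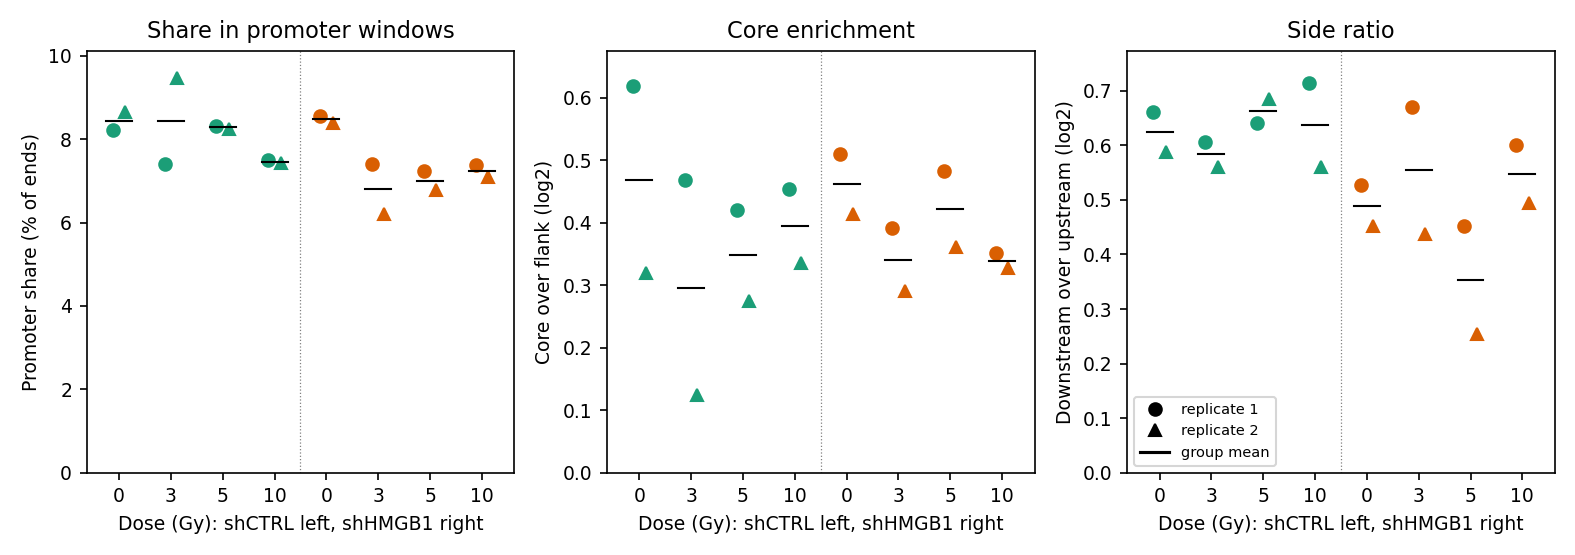
Promoter share (percent of thinned ends), core enrichment (log2) and side ratio (log2) of each library by line and dose in Gy; circles and triangles are replicates 1 and 2, bars the group means. The highest share, 9.47%, belongs to the smallest library, circles stand above triangles in core enrichment in all 8 groups, and shHMGB1 side ratios reach lower than shCTRL ones.

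Promoter by promoter, 9 members were higher in shHMGB1 than in shCTRL and none was lower. These are 0.743% of the 1211 windows tested with edgeR's quasi-likelihood test at an adjusted p under 0.05, of which 1204 were members. Hyou1, a chaperone of the endoplasmic reticulum, had 124 ± 26.8 CPM in shCTRL (lowest 87.1, median 122, highest 179) and 178 ± 65.5 in shHMGB1 (59.9, 186, 271; log2 difference 0.89 ± 0.20 SE, edgeR adjusted p = 0.0123). Adam4, a gene of the ADAM metalloprotease family, had 18.3 ± 8.37 CPM (8.64, 15.4, 29.8) and 34.8 ± 11.8 (17.3, 36.8, 51.6; log2 1.46 ± 0.33, edgeR adjusted p = 0.0123), the only one of the 9 higher in the means at all 4 doses. In both genes the ranges of the lines overlapped. Calhm5, of the CALHM channel family, had 224 ± 84.1 against 285 ± 65.5 CPM and Tnfsf13, the cytokine APRIL, 147 ± 56.4 against 191 ± 64.3 (log2 0.84 and 0.83). The other 5 were Strc, the inner ear protein stereocilin (0.76), Zmym2, a zinc finger protein (0.76), Tenm4, a teneurin (0.71), Gprin1 (0.71) and Cpox, a heme synthesis enzyme (0.69), with edgeR adjusted p from 0.0325 to 0.0482.

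All 9 were promoters whose ends pile up at 1 base. The most hit base held 52.1% to 98.6% of the ends, and over 80% in 7 of the 9. Over 50% at 1 base was found in 78 of the 1204 tested members, 6.48%. Their median log2 difference between lines was 0.48 and that of the other 1126 was 0.03, and 62 of the 78 but 590 of the 1126 were above 0. With at most 3 ends per position, no promoter passed in edgeR, and 6 of the 9 were then below 0: Hyou1 -0.016, Tnfsf13 -0.32, Strc -0.19, Zmym2 -0.050, Tenm4 -0.24 and Cpox -0.0063. The cap takes away many of the ends at the piled-up base itself. It therefore cannot test these calls or their direction. The values are relative to the other promoters: with library totals in place of TMM factors the median of all tested promoters moved from 0.05 to -0.32, no promoter was called higher and 1 lower.

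**Figure D5:**
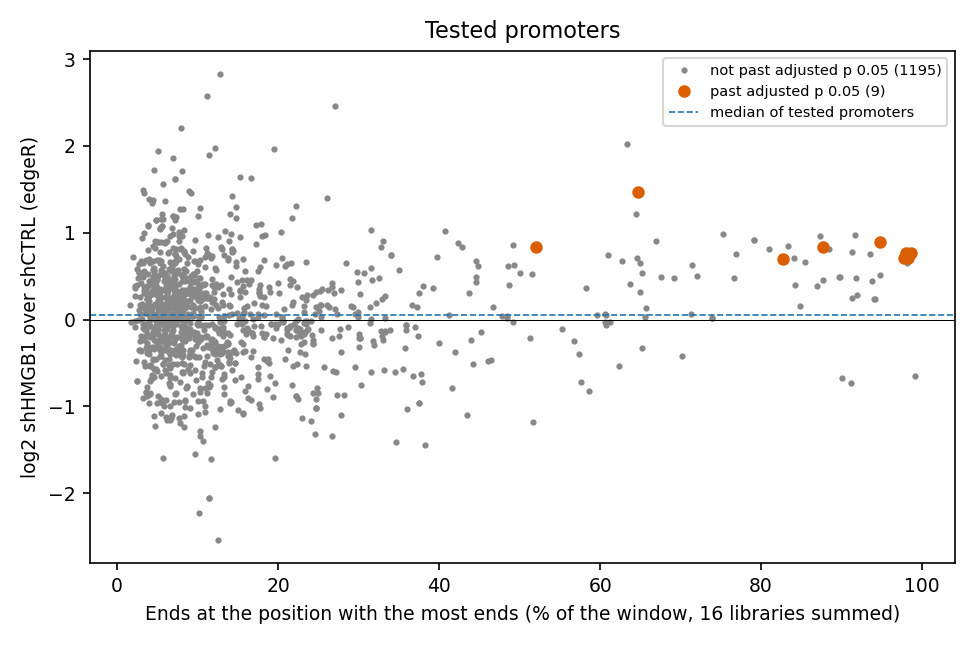
Share of a promoter's ends at its most hit base (horizontal axis, percent, 16 libraries summed) against the log2 difference of shHMGB1 over shCTRL (vertical axis, edgeR) for the 1204 tested members, each point 1 promoter. All 9 promoters past the threshold lie to the right of 50%, where most points lie above 0.

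No promoter passed for irradiation in edgeR (0.000% of 1211). Of the 1204 members, 75 had an unadjusted p under 0.05, and DESeq2 called 0, with 46 under 0.05. None passed for a difference between lines in the irradiation response either. There 57 of the 1204 had an unadjusted p under 0.05 in edgeR, and DESeq2 called 0, with 32. A threshold of 0.05 alone passes about that fraction of tests where nothing differs. Pdzd8, singled out after its values were seen because its sequence was already shown, had 63.1, 94.8, 128 and 144 CPM in the 4 unirradiated libraries and 19.9 to 88.7 (median 36.8) in the 12 irradiated ones. The ranges overlap through replicate 1 of both lines at 3 Gy. Its log2 difference was -1.06 ± 0.27 with an edgeR adjusted p of 0.232, which did not pass. With the replicate block it was -1.07 ± 0.23 and passed (edgeR adjusted p = 0.0214), as it did with a block within each line (0.0280). The ends in question lie at the base 41 bp before its start. Few promoters of the stress and damage lists had enough ends to be tested: 5 of 23 immediate early genes, 7 of 21 chaperone genes, 2 of 24 p53 targets and 2 of 28 repair genes. None of these tested promoters passed in edgeR. Hspa5 stood at 0.73 ± 0.33 after irradiation (edgeR adjusted p = 0.731), Thbs1 at 0.64 ± 0.25 (0.615) and Bax at 0.46 ± 0.50 (0.881). Of the 20 tested highly transcribed genes the median was 0.10, of 43 ribosomal proteins 0.02 and of all 1204 members -0.09.

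The gene lists likewise held no called promoter between lines, apart from Tenm4 among the long fragile-site genes. The median log2 difference was 0.14 for 20 tested highly transcribed genes, -0.03 for 43 ribosomal proteins, 0.12 for 11 matrix genes and 0.06 for 9 translation factors, beside 0.05 for all 1204. Those values are relative to the other promoters through the TMM factors. Per 1000000 positions, each counted once, highly transcribed genes averaged 31.7 ± 7.19 in the 8 shCTRL libraries and 23.2 ± 4.21 in the 8 of shHMGB1. Matrix genes averaged 21.7 ± 1.78 and 16.6 ± 4.03, and all members 3.80 ± 0.307 and 3.45 ± 0.339. Here the means were lower in shHMGB1. These means cover all members of a list in libraries that were not thinned, and the medians above cover tested promoters only. Library sizes outside dense clusters also differed, from 100631 to 681172 ends in shCTRL and 523741 to 774886 in shHMGB1. The directions for highly transcribed and matrix genes thus come from measures that differ in more than scale, and the part of each was not tested. Hmgb1, the gene named by the hairpin, had 15.8 ± 7.98 CPM in shCTRL (2.94, 15.3, 26.6) and 6.65 ± 4.32 in shHMGB1 (2.58, 5.54, 15.6). Its log2 difference was -0.71 ± 0.49 (edgeR adjusted p = 0.686), and the ranges overlap. A hairpin acts on the messenger RNA, so this value is no check of the knockdown. Msln had 20.3 ± 10.2 CPM in shCTRL and 8.05 ± 4.63 in shHMGB1 (log2 -0.93 ± 0.42, edgeR adjusted p = 0.524), and Hspa5 57.9 ± 18.8 and 30.5 ± 17.1 (-0.62 ± 0.28, edgeR adjusted p = 0.523). Simulated 2-fold changes in 200 of 1211 promoters were recovered in 31% of cases, with 9 false calls, and 3-fold changes in 68%, with 6, so at this depth changes of that size can be missed.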

How the data were processed

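Adapters were ligated to free DNA ends in fixed cells; sonication of the genomic DNA, in vitro transcription and library preparation followed, per the labels' protocols. The build was mm10 and the tools were UMI-tools, bedtools, BWA 0.7.5-r404 and SAMtools, with Trimmomatic 0.32, all per the submitters' processing notes, which give no settings here. The authors' deposited files give, for each cluster, its interval, its end positions and the count of ends, as raw counts of molecules with no strand and no normalization. Mapping of repeated sequence can raise single positions.

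Every end was placed at its own position on chromosomes 1 to 19. Ends inside any cluster with a count of at least 1000 in any library, 48 intervals after merging with 18.2% to 26.5% of a library's ends, were left out. Each library was thinned once with a fixed seed to 100631 ends, and profiles used 50 bp bins. An end in overlapping windows counted for each of them. No genome sequence was used, so CpG class came from the 300 bases of a RefSeq promoter within 500 bp of the GENCODE start, in place of the planned 1 kb. Shares, core enrichment and side ratios were compared by two-sided exact tests that permuted labels within doses (1296 arrangements) or within lines (784), and shapes by sign flips over 16 libraries, each with Benjamini-Hochberg adjustment. Differences between lines in the irradiation response exchanged hairpin labels within doses. The counts per window were tested with edgeR 4.0.16 (R 4.3.3; glmQLFit and glmQLFTest, 8 group means, TMM, filterByExpr), which was tested on simulated data. Relations with library size used 100000 permutations. Alternatives included DESeq2 1.42.0. All other steps ran in Python 3.11.15 (scipy 1.17.1 for tests, matplotlib 3.10.9 for figures, pandas 2.3.3 and numpy 2.4.6 for tables).

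The members, the 16 gene lists and the tests were chosen with earlier results of these data known. The rule named the 12 members with the highest mean CPM without predicted genes, up to 12 called members in each direction of each comparison, of each list the 2 members with most ends and any called, Hmgb1, and the 6 members whose sequences are printed; some items the rule named are not reported here. Distinct positions outside exons, relations with library size, profiles by class with each position counted once, a fixed set of promoters when a library was left out, and results without 4 predicted genes were chosen after seeing the data.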

Additional observations from a re-analysis of the deposited data

Results flagged for a closer look

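The windows left out for dense clusters held signal outside the comparisons above. The window of Slc3a2, the heavy chain of an amino acid transporter and a host of snoRNAs, held 3241 ± 1213 CPM (SD, n = 16; 1973 to 6270) on the scale of ends outside dense clusters, beside 3406 ± 845 CPM for Gm21738, the highest kept member. The 6 windows of predicted genes together held a mean of 12.5 ± 2.53% of all ends on chromosomes 1 to 19 (7.51% to 16.8%).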

How the results depend on the processing

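The 4 shape results kept their direction and passed in every setting tried, all drawn from the same 16 libraries. For divergent promoters the direction follows largely from counting both starts of a pair, so passing adds no support there. Between lines, the promoter share passed with each position counted once (-0.54 points), at most 3 ends per position (-0.61) and 1 kb windows (-0.40), the CpG-rich share with at most 3 ends (-0.40) and 1 kb windows (-0.28), the CpG-poor share with 1 kb windows (-0.049), and the side ratio with positions once (-0.17), at most 3 ends (-0.18), outside exons and small RNA genes (-0.20) and both together (-0.21). For irradiation the share passed with positions once (-0.83), at most 3 ends (-0.83), outside exons (-0.47), both (-0.45), lone starts with no other within 5 kb (-0.72), 1 kb windows (-0.54) and without the smallest library at 301148 thinned ends (-1.03). The CpG-rich share passed in the same settings except lone starts (-0.57, -0.58, -0.33, -0.32, -0.38, -0.70), and core enrichment with positions once (-0.13) or at most 3 ends (-0.11). The CpG-poor share did not pass with dense clusters kept (-0.092), over 20 thinning draws (-0.13), outside exons (-0.091) or both (-0.073). The cause of these changes was not tested.

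Differences near 0 that never passed changed sign. Core enrichment between lines was -0.011 without thinning, -0.019 with dense clusters kept, -0.0081 over 20 draws, -0.0058 with positions once, -0.0065 outside exons, -0.037 for lone starts and -0.049 without the smallest library. The side ratio after irradiation was 0.0061, 0.013 and 0.0025 in the first 3 of these, 0.040 outside exons, 0.0048 outside exons with positions once and 0.019 without the smallest library. The difference in response between lines was 0.026 for the side ratio with dense clusters kept; 0.023, 0.0089, 0.035, 0.00066, 0.023 and 0.044 points for the CpG-poor share with positions once, at most 3 ends, outside exons, lone starts, 1 kb windows and both; and -0.012, -0.0015 and -0.017 for core enrichment with positions once, at most 3 ends and lone starts.

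Leaving out each library in turn moved the share difference between lines from -1.04 to -0.52 points, past the test only without shCTRL 0 Gy replicate 1, and that after irradiation from -1.06 to -0.81, past it only without shCTRL 3 Gy replicate 2. The CpG-rich ranges were -0.72 to -0.35 and -0.76 to -0.45, the CpG-poor ranges -0.07 to -0.03 and -0.18 to -0.12, core enrichment -0.029 to 0.057 and -0.18 to -0.03, and the side ratio -0.17 to -0.11 and -0.020 to 0.022. The CpG-poor call after irradiation held only without 1 of 3 libraries: the smallest, replicate 1 of shHMGB1 at 3 Gy, or replicate 1 of shHMGB1 at 10 Gy. Responses ranged between lines from -1.43 to -0.74 (share), -1.13 to -0.50 (CpG-rich), -0.081 to 0.025 (CpG-poor), -0.12 to 0.18 (core) and -0.047 to 0.031 (side). Without shCTRL 0 Gy replicate 2 the responses of the share (-1.30) and of the CpG-rich share (-1.13) passed (adjusted exact p = 0.0116 for both); without any other library they did not.

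Of the 9 promoters called higher between lines, 8 were called with DESeq2, 4 with its size factors and 1 outside exons. In 1 kb windows 3 were called, 2 of them among the 9. Library totals called 1, lower and not among the 9. The number called was 0 without a filter, with positions once, with at most 3 ends, after thinning (81 tested) and in libraries summed by line and number. In those 5, the unadjusted p was under 0.05 for 1190 of 20454, 33 of 604, 73 of 1109, 12 of 81 and 210 of 4189 tested members. A threshold of 0.05 alone passes about that fraction of tests where nothing differs, so these counts are not calls. Leaving out a library gave 0 to 17: 17 without shCTRL 3 Gy replicate 1, 14 without its replicate 2, 2 without shCTRL 5 Gy replicate 2 or shHMGB1 0 Gy replicate 1, 5 without shCTRL 0 Gy replicate 2, and 0 without shCTRL 0 Gy replicate 1, 5 Gy replicate 1 or 10 Gy replicate 2, or shHMGB1 0 Gy replicate 2, 3 Gy replicate 2, 5 Gy replicate 1 or 10 Gy replicate 1. The lone library then left in a group is assumed to vary like the others. For irradiation library totals gave 4 and leaving out a library 0 to 2. Cpox was -0.080 with positions once and -0.0063 with at most 3 ends, when Hyou1 was -0.016, Tnfsf13 -0.32, Strc -0.19, Zmym2 -0.050 and Tenm4 -0.24. Both settings take away many of the ends at a piled-up base, so these signs are no test of direction.

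Over the tested promoters, same-numbered libraries did not deviate together by the limit of 0.1: the correlations of their deviations from group means were -0.0019 to 0.099 within a line (12 pairs) and -0.022 to 0.071 between lines (16 pairs), so the numbers were not taken to pair the samples. In the shape measures replicate 1 was higher in 8 of 8 groups for core enrichment and in 7 of 8 for the side ratio. With the replicate block the promoters called between lines were 14, with a block within each line 17 (16 higher, 1 lower), and after irradiation 1 under both (Pdzd8, lower). The CpG-poor share after irradiation was -0.15 points with the replicate block and did not pass (adjusted exact p = 0.0521). No other result of the shares and ratios changed its call under the block. Depth limits single promoters most, since the median member held 17 ends over 16 libraries.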
